A study of Mus musculus with 2 samples.

Results

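The prostaglandin genes described here are 10 of the 18919 genes in the deposited expression table, chosen by name: the cyclooxygenase genes Ptgs1 and Ptgs2, the prostaglandin E synthase genes Ptges, Ptges2 and Ptges3, the uptake carrier gene Slco2a1, the breakdown enzyme gene Hpgd and the receptor genes Ptger2, Ptger3 and Ptger4. All 10 were found in the table. RNA came from whole intestine of untreated C57BL/6 mice aged 2 months, and each library was made from the mixed RNA of 3 littermates. The control pool had the genotype APCmin, the Min allele of the tumour suppressor gene Apc, which truncates the protein and gives intestinal adenomas. The knockout pool had the genotype APCmin; Setd2IEC-/-, which adds loss of Setd2, the histone H3 lysine 36 methyltransferase gene, in the intestinal epithelium; both pools therefore carried the Apc mutation, and there was no pool with normal Apc. Other cells of the intestine kept Setd2, and the promoter that drove the deletion is not given in the sources used here. With 1 library per genotype there was no replicate, so no test was made and every difference below is one between 2 pools.

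Prostaglandin E2 is made in steps. A phospholipase frees arachidonic acid from membranes, a cyclooxygenase turns it into prostaglandin H2, and a prostaglandin E synthase isomerises that product. The carrier encoded by Slco2a1 takes prostaglandins back into cells, where the dehydrogenase encoded by Hpgd inactivates them. The receptors EP2 and EP4 raise cyclic AMP through a stimulatory G protein, EP3 mostly lowers it, and EP1 signals through calcium. In Apc-mutant mice, loss of Ptgs2 or cyclooxygenase inhibitors reduce the number of intestinal polyps, which is why the pathway is often measured in this model.

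The libraries held 8809678 (control) and 8646358 (knockout) expected counts, of which the 10 genes took 5740 and 6451. Setd2 was at 6.87 FPKM in the control and 3.47 in the knockout pool, and Apc at 10.51 and 10.73. FPKM counts fragments per length of transcript and depth of library, so it can be compared between genes. A gene was counted as measured when it reached 1 FPKM in at least 1 library, which 13253 genes did. Differences are given as log2 ratios of knockout over control after adding 1 FPKM to both, and as ratios of counts scaled to the library total (CPM) with a 95% interval (exact Clopper-Pearson) that covers counting error and leaves out variation among mice. A gene was called past 2-fold at a log2 ratio of at least 1 or at most -1. By that rule 2.78% of measured genes were higher in the knockout pool and 1.28% lower; the counting interval lay above 1 for 28% and below 1 for 12.5%, since many genes have counts high enough for small differences to exceed counting error.

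By this rule none of the 10 prostaglandin genes was past 2-fold, in either direction (0 higher and 0 lower), although the CPM ratio of the rare Ptger3, without the pseudocount, was 2.04 from 7 and 14 counts. Cyclooxygenase-2 RNA was the enzyme transcript with the largest ratio, the breakdown enzyme and the uptake carrier were modestly higher, and the receptor gene Ptger4 was lower. Counting intervals lay above 1 for Ptgs2, Ptges3, Slco2a1 and Hpgd (4 of the 8 measured genes) and below 1 for Ptger4 (1 of 8). The shares over all measured genes were 28% above and 12.5% below, so 1 of 8 below is the background share. Ptger2 and Ptger3 stayed under 1 FPKM in both pools, and Ptgs2 counted as measured through the knockout pool alone. The median log2 ratio over all 10 genes was 0.26, beside 0.07 over all genes above 0 in a library. These are whole-tissue RNA values, in which fewer cells of a type and less RNA per cell cannot be told apart.

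The promoters of 4 of these genes are shown because the results turn on them: Ptgs2, Hpgd, Slco2a1 and Ptger4 stand for synthesis, breakdown, uptake and reception, and each had a counting interval that leaves out 1. Each runs 5′ to 3′ from 200 bases before to 30 bases after the annotated RefSeq start (build GRCm38.p6, the assembly of mm10), and capitals mark the motifs found by a search of both strands. The positions are chr1:150099831-150100060 on the plus strand for Ptgs2, chr8:56294352-56294581 (plus) for Hpgd, chr9:103008287-103008516 (plus) for Slco2a1 and chr15:5244158-5244387 (minus) for Ptger4. The RefSeq gene record of Slco2a1 begins further upstream, at chr9:103007061, so the start used for its window lies within that record.
Ptgs2: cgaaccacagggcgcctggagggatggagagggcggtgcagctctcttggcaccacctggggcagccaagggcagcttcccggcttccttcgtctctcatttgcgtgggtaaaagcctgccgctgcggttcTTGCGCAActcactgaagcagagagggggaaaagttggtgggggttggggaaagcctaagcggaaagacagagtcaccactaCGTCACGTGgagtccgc
Hpgd: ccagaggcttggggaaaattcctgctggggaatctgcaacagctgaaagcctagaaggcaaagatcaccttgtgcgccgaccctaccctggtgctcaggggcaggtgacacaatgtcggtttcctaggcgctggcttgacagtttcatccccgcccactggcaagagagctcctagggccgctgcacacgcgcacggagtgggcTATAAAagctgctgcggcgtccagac
Slco2a1: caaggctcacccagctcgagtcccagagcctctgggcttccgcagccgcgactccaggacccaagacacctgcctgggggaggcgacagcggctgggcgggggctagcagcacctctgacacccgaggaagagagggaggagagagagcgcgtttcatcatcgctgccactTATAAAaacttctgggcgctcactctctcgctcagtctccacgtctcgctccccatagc
Ptger4: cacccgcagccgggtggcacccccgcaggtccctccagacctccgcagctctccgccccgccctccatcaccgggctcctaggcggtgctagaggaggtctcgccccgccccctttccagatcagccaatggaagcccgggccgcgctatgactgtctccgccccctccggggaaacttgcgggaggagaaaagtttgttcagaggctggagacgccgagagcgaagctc

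The motifs searched in the table's promoters, which span 250 bases before to 50 after the start, were the TATA box as TATAAA, 3 sites of cyclic AMP response element type (TGACGTCA; the variant TGACGTAA; the variant TGACGTTA), the E-box CACGTG, one consensus site for NF-kB, and one site for TCF factors, which is CTTTGAT. The shorter TGACG, a half-site for cyclic AMP response element binding factors, and the sequence TTGCGCAA, known as a site for C/EBP factors, were added after the Ptgs2 promoter had been read. In Ptgs2 the capitals are TTGCGCAA and, further on, the joined run of TGACG (on the reverse strand) and CACGTG, which overlap by 2 bases. TTGCGCAA begins 69 bases before the start, and the joined run begins after it, at base 14 counted from the start. Over 32851 mouse promoters, TTGCGCAA was found in 0.183%, CACGTG in 7.15% and TGACG in 20.8%. Hpgd and Slco2a1 each had TATAAA, which 13.6% of promoters held. In Hpgd TATAAA begins at base 5 counted from the RefSeq start. The GENCODE M21 annotation starts Hpgd further downstream, at chr8:56294585, so the motif lies before that start. In Slco2a1 TATAAA begins 29 bases before the RefSeq start. The Ptger4 window held none of the motifs. Outside these 4 genes, CACGTG was found in Ptges2 and TGACG in Ptges3. The other motifs were in none of the 10 promoters; TGACGTCA was held by 1.79% of all promoters, TGACGTAA by 0.499%, TGACGTTA by 0.244%, the NF-kB site by 0.155% and CTTTGAT by 3.73%. A match describes letters in a window and was not tested for binding. The 10 promoters also differed in composition: G and C made up 38% of the 250 bases before the Ptger2 start and 73.2% of those before Ptges3, beside a median of 52.4% over all promoters.

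Ptgs1 encodes the constitutive cyclooxygenase and was level between the pools. It was at 11.28 FPKM in the control and 11.21 in the knockout pool, from 288 and 281 counts, a CPM ratio of 0.994 (0.840 to 1.18). Ptgs2 encodes the inducible cyclooxygenase and was rare in both, at 0.91 FPKM in the control and 1.69 in the knockout pool. The knockout pool was the higher one, with 66 counts against 36. The CPM ratio was 1.87 (1.23 to 2.89), and the log2 ratio of 0.49 with the pseudocount became 0.89 with a pseudocount of 0.01 FPKM, still short of 2-fold. Because Ptgs1 supplied most of the family, the summed cyclooxygenase level was close in the pools, at 12.19 and 12.9 FPKM. The Ptgs2 share of that sum was 7.47% in the control (5.25% to 10.3%) and 13.1% in the knockout pool (10.2% to 16.5%). The Ptgs2 to Ptgs1 count ratio, which needs no scaling between libraries, was 1.88 times that of the control pool (1.19 to 3.00).

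**Figure D1:**
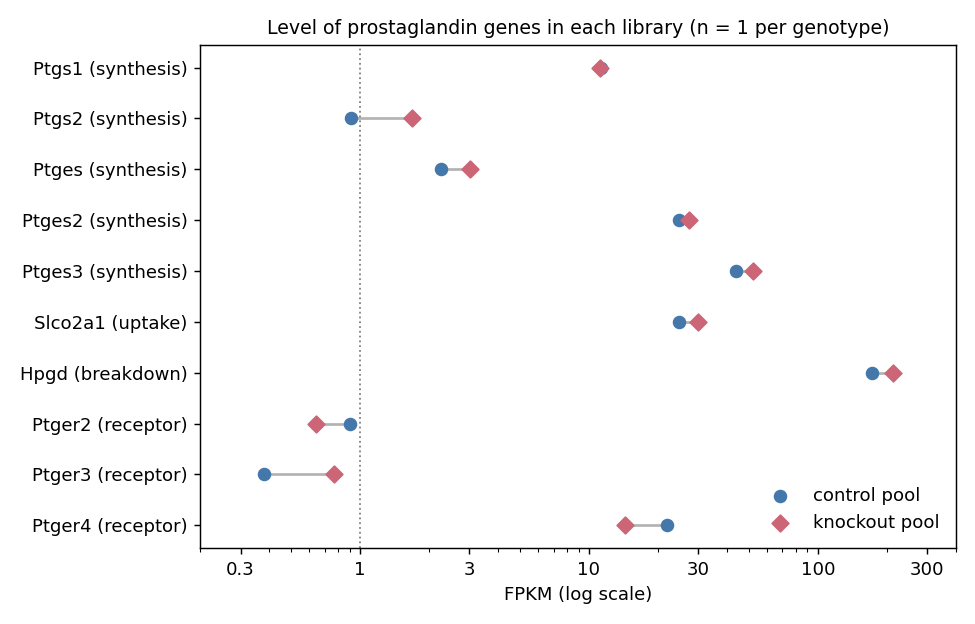
FPKM of each of the 10 genes (log axis) in the control pool (circles) and the knockout pool (diamonds), with 1 library per genotype; the dotted line marks 1 FPKM. Levels span from 0.38 for Ptger3 in the control pool to 212.9 for Hpgd in the knockout pool, and the longest lines between the pools are those of the rare genes Ptgs2 and Ptger3.

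The 3 prostaglandin E synthase genes differed from each other in level far more than between pools. Ptges encodes the inducible microsomal synthase that is coupled to cyclooxygenase-2, and was the rarest, at 2.25 FPKM in the control and 3.02 in the knockout pool. Its CPM ratio was 1.34, and the interval of 0.978 to 1.84 includes 1. Ptges2, a second membrane-associated synthase, was at 24.78 and 27.37 FPKM, with an interval that also includes 1 (0.966 to 1.26). Ptges3 encodes the cytosolic synthase, which is also the Hsp90 cochaperone p23, and was the most abundant, at 43.85 and 52.32 FPKM. Its CPM ratio was 1.19 (1.08 to 1.32). All 3 genes were thus higher in the knockout pool by value, while counting error was exceeded for Ptges3 alone. Ptges contributed 3.17% of the summed synthase FPKM in the control and 3.65% in the knockout pool, and Ptges3 61.9% and 63.3%. The sums were 70.88 and 82.71 FPKM.

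The genes for removal of prostaglandins were the best counted of the 10. Hpgd was the most abundant, ranking 488th of all genes by FPKM in the control and 399th in the knockout library. It was at 171.9 FPKM in the control and 212.9 in the knockout pool, from 2597 and 3157 counts. The knockout pool was higher, with a CPM ratio of 1.24 (1.18 to 1.31) and a log2 ratio of 0.31. Slco2a1 encodes the transporter that brings prostaglandin E2 to this enzyme, and its difference was nearly the same size. It was at 24.83 and 29.99 FPKM, with a CPM ratio of 1.21 (1.10 to 1.32). The Hpgd to Slco2a1 count ratio of the knockout pool was 1.03 times that of the control pool, with an interval of 0.924 to 1.14. Hpgd RNA was 14.1 times the summed level of both cyclooxygenase genes in the control and 16.5 times in the knockout pool, on the FPKM scale. The Hpgd to Ptgs1 count ratio was 1.25 times that of the control pool (1.04 to 1.49). A log2 ratio of 0.31 or less was common, since 77.5% of measured genes lay below that of Hpgd.

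**Figure D2:**
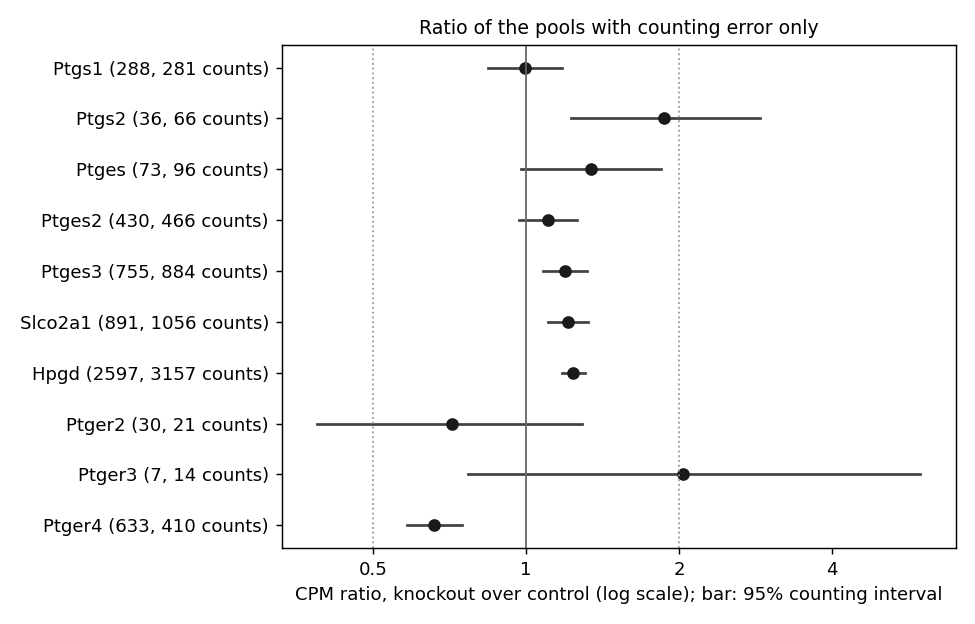
CPM ratio of the knockout over the control pool for each of the 10 genes (log axis; dots) with its 95% counting interval (bars); the counts of the control and knockout libraries are in the labels, and dotted lines mark 2-fold. Intervals of Ptgs2, Ptges3, Slco2a1 and Hpgd lie above 1, that of Ptger4 lies below 1, and that of Ptger3, from 7 and 14 counts, is the widest.

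Ptger4 was lower in the knockout pool, and its counting interval was the only one of the 10 below 1, beside 12.5% of all measured genes. The gene encodes EP4, a prostaglandin E2 receptor of the intestinal epithelium, and was at 21.82 FPKM in the control and 14.39 in the knockout pool, from 633 and 410 counts. The CPM ratio was 0.660 (0.581 to 0.748) with a log2 ratio of -0.57, and 3.69% of measured genes lay below it. Ptger2, which encodes EP2, was at 0.9 and 0.64 FPKM; with 30 and 21 counts its interval of 0.388 to 1.29 includes 1. Ptger3, which encodes EP3, was at 0.38 and 0.77 FPKM. Its CPM ratio of 2.04 rests on 7 and 14 counts, and the interval runs from 0.770 to 5.97, so that no difference was detectable for EP2 or EP3 at this depth. Ptger1, the EP1 gene, was not among the 10 chosen genes but completes the family, and was level at 17.69 and 17.26 FPKM.

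The makeup of the EP receptor family therefore differed between the pools. Ptger4 contributed 53.5% of the summed EP receptor FPKM in the control and 43.5% in the knockout pool, and Ptger1 43.4% and 52.2%. The order of the 2 most abundant receptors was thus opposite. Taken as a pair, Ptger4 held 55.2% of the Ptger4 and Ptger1 level in the control (51.9% to 58.6%) and 45.5% in the knockout pool (41.8% to 49.2%). The Ptger4 to Ptger1 count ratio of the knockout pool was 0.677 times that of the control pool (0.552 to 0.830). Whether counting used strand is not given in the sources used here, and overlap of Ptger1 with other genes is not reported here. For Ptger4 the share of exonic bases (GENCODE M21) overlapping Ttc33, a gene on the opposite strand, was 1.23%. All 10 chosen genes had whole-number expected counts in both libraries, so none had a fraction left by dividing reads between genes (a value with no remainder at the 2 decimals deposited counted as whole).

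**Figure D3:**
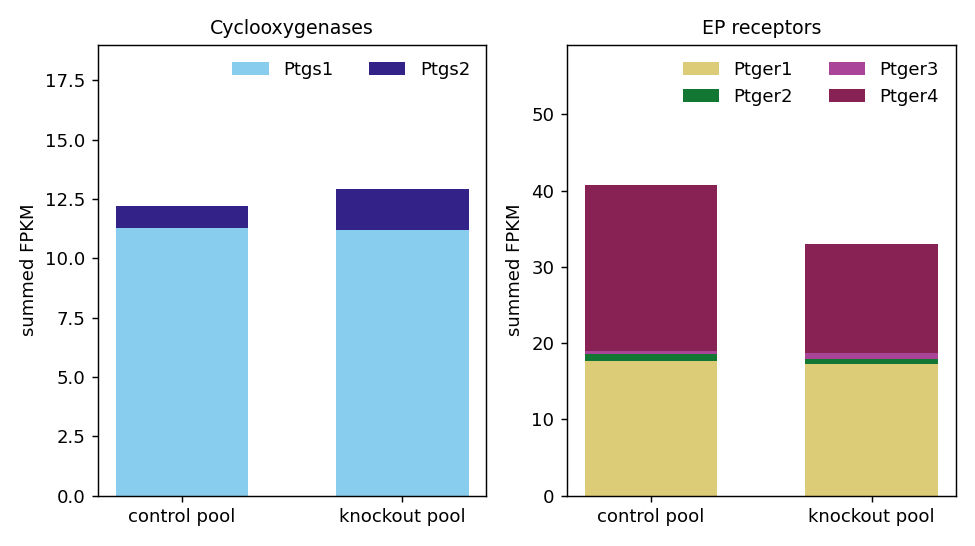
Summed FPKM of the cyclooxygenase genes (left) and the EP receptor genes (right) in the control and knockout pools, with 1 library per genotype; bar segments are single genes. Ptgs1 is the larger part on the left in both pools (11.28 and 11.21 FPKM), and on the right the Ptger4 segment is 21.82 FPKM in the control and 14.39 in the knockout pool.

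Upstream of the cyclooxygenases, most genes of arachidonate release were within 2-fold. Of 21 listed genes 17 were measured; 2 were past 2-fold higher and 0 lower, with a median log2 ratio of 0.11 beside 0.08 for all measured genes. Pla2g2a, a secreted phospholipase of Paneth cells whose frameshifted allele in C57BL/6 is a known modifier of polyp number in Apc-Min mice, was at 8.27 FPKM in the control and 53.51 in the knockout pool (CPM ratio 6.47, 4.88 to 8.71). Anxa1, a phospholipase inhibitor, was at 5.16 and 22.05 FPKM (4.27, 3.23 to 5.71). The lowest ratios were those of Faah, which degrades fatty acid amides (44.29 and 31.77 FPKM), and Pla2g2d (6.43 and 4.99 FPKM). Abhd12, a lysophospholipid hydrolase gene, had the highest mean and was at 63.23 and 59.02 FPKM. Pla2g12a and Pla2g4b were named after their values were seen. Pla2g12a was at 7.01 and 14.11 FPKM (CPM ratio 2.03, 1.58 to 2.62), short of a call with the pseudocount. Pla2g4b was under 1 FPKM in both pools, with 0 counts in the control and 27.27 in the knockout library. By value 15 of the 21 listed genes were higher and 6 lower, beside 61.3% of all genes higher. Pla2g4a, the cytosolic phospholipase that feeds the cyclooxygenases, was named after its values were seen; it was at 3.89 and 5.01 FPKM with an interval that includes 1.

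Synthases of the other prostanoids were mostly level. Of 13 listed genes 10 were measured, with 1 past 2-fold higher, 0 lower and a median log2 ratio of -0.03. The exception was Akr1b8, an aldo-keto reductase gene, at 4.06 FPKM in the control and 25.83 in the knockout pool (CPM ratio 6.37, 4.66 to 8.91). Cbr1, a carbonyl reductase and the most abundant, was at 306.5 and 297.98 FPKM, and Ptgis, the prostacyclin synthase gene, at 1.43 and 0.93 FPKM. Of the other receptors 3 of 8 were measured and 0 were past 2-fold: Ptger1, Pparg (15.61 and 15.22 FPKM) and Ppard (65.15 and 63.88 FPKM).

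Other genes of breakdown and transport differed in both directions. Of 15 listed genes 13 were measured, 2 past 2-fold higher and 0 lower, with a median log2 ratio of -0.05. Counting intervals lay above 1 for 4 and below 1 for 5 of the 13, beside 28% and 12.5% of all measured genes. Ptgr1, named after its values were seen, was at 51.82 and 64.66 FPKM. Its CPM ratio of 1.25 (1.14 to 1.36) was near the 1.24 of Hpgd. Abcc4, which exports prostaglandin E2 from cells, was at 1.12 FPKM in the control and 3.35 in the knockout pool (CPM ratio 2.95, 2.17 to 4.06). Slc22a7, an organic anion transporter gene, had 0 counts in the control and 29 in the knockout library, at least 9.85-fold higher against a floor of 3 counts in the control library, and was measured through the knockout pool alone. The lowest ratios were those of Akr1c14, a hydroxysteroid dehydrogenase gene (21.61 and 13.77 FPKM), and the cytochrome P450 gene Cyp4f16 (258.1 and 169.1 FPKM). Cyp4f14, of the same family and the most abundant of the list, was at 580.6 and 416.99 FPKM.

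**Figure D4:**
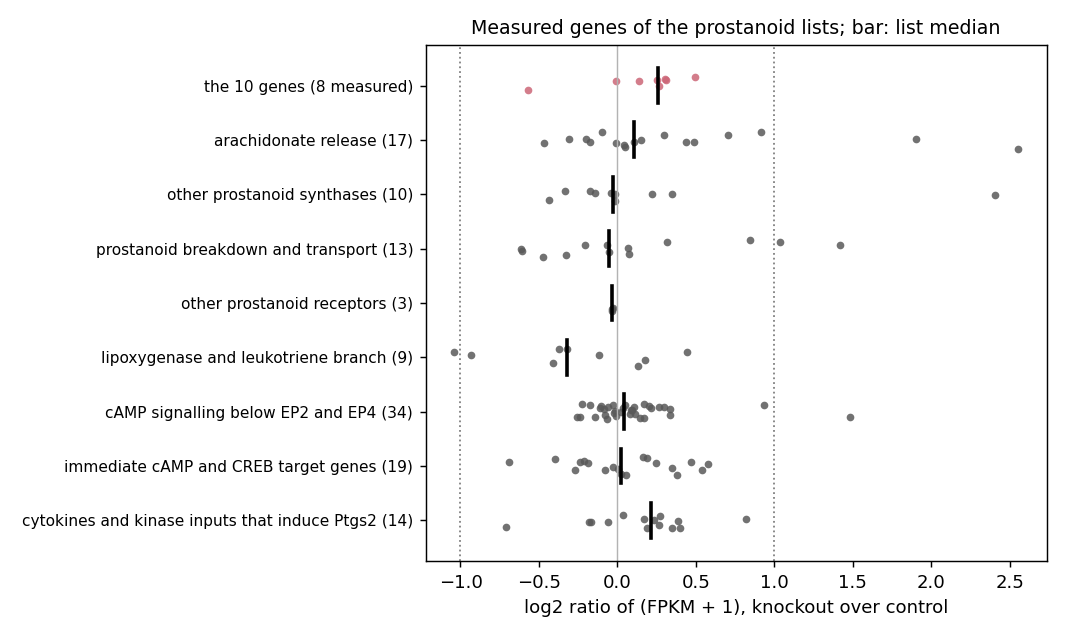
log2 ratio of (FPKM + 1), knockout over control, for the 8 measured prostaglandin genes (top, coloured) and the measured genes of 8 lists of the wider pathway (grey), 1 point per gene; bars are list medians, numbers of genes are in the labels, and dotted lines mark 2-fold. The chosen genes lie between -0.57 and 0.49, while Pla2g2a, Akr1b8 and Anxa1 lie beyond 1.9.

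The lipoxygenase branch, which makes leukotrienes from the same arachidonic acid, was lower by median. Of 17 listed genes 9 were measured, 0 past 2-fold higher and 1 lower, with a median log2 ratio of -0.32. That median depended on which low genes were let in. It was -0.11 over 15 genes without a filter on low values, and 0.02 over the 14 genes that reached 1 after rescaling to TPM. Dpep1, a dipeptidase that converts leukotriene D4, was at 135 FPKM in the control and 65.1 in the knockout pool (CPM ratio 0.482, 0.451 to 0.516). Ltc4s, the leukotriene C4 synthase gene, was at 8.99 and 4.23 FPKM, and Ggt1, the gamma-glutamyltransferase gene with the highest mean, at 493.9 and 395.8 FPKM. Highest in ratio were Ggt5 (2.04 and 3.13 FPKM) and the leukotriene B4 receptor gene Ltb4r2 (18.82 and 21.36 FPKM). Tuft cells make leukotrienes, and 16 of 17 tuft cell markers in the table were lower in the same pool, in which 61.3% of all genes above 0 in a library were higher by value, with a summed level of 61.42 FPKM in the control and 45.4 in the knockout pool; Gnat3 and Il25 were listed at 0 in the knockout pool. Alox5 and Ltc4s are in both sets, and the part of tuft cell content in these values was not tested.

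Most measured genes of signalling below EP2 and EP4 were within 2-fold at the RNA level. Of 37 listed genes of the cyclic AMP pathway 34 were measured, 1 past 2-fold higher and 0 lower, with a median log2 ratio of 0.04. That gene was Adcy8, an adenylyl cyclase, at 0.66 FPKM in the control and 3.64 in the knockout pool (CPM ratio 5.43, 3.66 to 8.32). Prkar2b, a regulatory subunit of protein kinase A, was next at 0.97 and 2.77 FPKM. Both counted as measured through the knockout pool alone. The cyclase genes Adcy1 and Adcy2, named after their values were seen, stayed under 1 FPKM in both pools and so were not called. Adcy1 had 28 and 101 counts (CPM ratio 3.68, 2.40 to 5.80). Adcy2 had 3 and 20 counts (6.79, 2.01 to 35.7). By value 22 of the 37 listed genes were higher and 15 lower, beside 61.3% of all genes higher. Gnas, the stimulatory G protein gene and the most abundant, was at 205.2 and 175.4 FPKM. The phosphodiesterase genes Pde7a (4.05 and 3.22 FPKM) and Pde3a (5.26 and 4.3 FPKM) had the lowest ratios. Of 20 immediate targets of cyclic AMP and CREB, 19 were measured and 0 were past 2-fold, with a median of 0.02. They ranged from Atf3 (26.12 and 15.82 FPKM) and Dusp1 (12.97 and 9.6 FPKM) to Sik1 (4.01 and 6.29 FPKM) and the EGF receptor ligand gene Areg (18.14 and 27.54 FPKM). Pck1, with the highest mean, was at 112.8 and 117.04 FPKM.

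The list of inputs that induce Ptgs2 in other settings showed no call either, and it also holds other genes such as Nos2 and Zfp36. Of 20 listed genes 14 were measured and 0 were past 2-fold, with a median log2 ratio of 0.21. Tlr2, a receptor of bacterial lipoproteins, was at 0.47 FPKM in the control and 1.6 in the knockout pool and so counted as measured through the knockout pool alone. Il1b, the interleukin-1 beta gene, was at 1.27 and 1.99 FPKM, from 15 and 23 counts. Nos2, the inducible nitric oxide synthase gene, was at 1.47 and 0.51 FPKM, Hbegf at 9.6 and 8.34, and Zfp36, which destabilises Ptgs2 and cytokine mRNA and had the highest mean, at 111.7 and 99.4 FPKM.

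Markers of the cell types that carry these genes differed between the pools too. Counts here are over all listed markers in the table, with no filter, to be read beside the same 61.3% of all genes. Hpgd is strong in differentiated epithelium, while 1 of 17 enterocyte markers was higher and 16 were lower, summing to 34655 FPKM in the control and 25350 in the knockout pool. Slco2a1 is known from vascular endothelium, and 10 of 12 endothelial markers were higher, with summed levels of 74.91 and 90.88 FPKM. The CPM ratios of these markers ran from 0.637 for Cldn5 to 2.37 for Cdh5. Mast cells carry EP3; 9 of 10 mast cell markers were higher and Hdc was lower (0.8 and 0.57 FPKM), with list sums of 14.08 and 65.37 FPKM and Ms4a2 and Tpsb2 listed at 0 in the control. Macrophages and fibroblasts are sources of Ptgs2 and Ptges. Of their markers 9 of 13 and 11 of 14 were higher, but their sums were lower, at 253.1 and 239.9 FPKM and 186.6 and 181.7 FPKM. The most abundant marker of each list was among the lower ones. These were Lyz2 for macrophages (107.73 and 76.97 FPKM) and Fbln1 for fibroblasts (66.21 and 40.86 FPKM). The smooth muscle sums were 478.8 and 480.2 FPKM. Crypt stem and cycling cell markers were higher for 11 of 11 genes (236.9 and 339.4 FPKM), and adenoma and Wnt target genes for 10 of 11 (98.77 and 304.5 FPKM). The counts are not separate, since Axin2, Lgr5 and Cd44 are in both lists. Clu made up much of the second sum, at 35.79 FPKM in the control and 195.18 in the knockout pool. Mmp7 was the lower gene, at 42.64 and 31.13 FPKM. Notum, Sox17 and Prox1 were under 1 FPKM in the control and reached it in the knockout pool. Neutrophil sums were 11.51 and 17.64 FPKM. Of 11 lymphocyte markers 7 were lower, but their sum was higher, at 709.4 and 830.2 FPKM, with the plasma cell gene Jchain at 609.1 and 744.7 FPKM. The mesothelial markers other than Krt19 summed to 4.77 and 2.5 FPKM, and 2 of 11 neuron and glia markers reached 1 FPKM.

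Markers listed for the pancreas, the stomach and red cells were higher in the knockout pool as well. Those of pancreatic acinar cells were higher for 15 of 15 genes (summed 70.39 FPKM in the control and 2703 in the knockout pool). Stomach markers were higher for 10 of 10 (13.44 and 162.2 FPKM) and red cell genes for 6 of 6 (66.06 and 240 FPKM). The source of these transcripts was not tested. Of the stomach markers, 7 were under 1 FPKM in the control and reached it in the knockout pool. Amy2a5, the pancreatic amylase gene and the most abundant of the first list, was at 15.14 and 626.3 FPKM. The part of any of these cell types or tissues in the values of the 10 genes was not tested.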

How the data were processed

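Per the submitters' processing notes and the labels' protocols, which give no versions, the aligners were BWA and Bowtie2 on mm10, and RSEM did the quantification. The deposited sample files give expected counts (estimated counts, which RSEM may split between genes) and FPKM per the file headers; the deposited series table repeats the authors' FPKM, with 0 where a sample file has no value. The transcript length columns served as a check. Symbols turned into dates were repaired by gene identifier for 26 genes. Ratios, intervals and shares were computed with Python 3.11.15, pandas 2.3.3 and SciPy 1.17.1, and the scripts were tested on simulated data. Positions and promoters are RefSeq GRCm38.p6 (all 10 genes matched; 18871 identifiers in all). The floor for a count of 0 was 3 counts per library (0.341 CPM in the control, 0.347 in the knockout).

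The 10 genes, 8 pathway lists and 16 cell type lists (332 genes, 325 in the table) were chosen with earlier results of these data known. Named were the 10 genes and, per pathway list, genes past 2-fold, the 2 highest and 2 lowest ratios and the highest mean; not all are printed, and exceptions are marked. Cell type lists are given as counts and sums. There were no replicates, so no p-value was computed; 8 alternative settings were tried. A result on a withheld item is not reported here.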

Additional observations from a re-analysis of the deposited data

How the results depend on the processing

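No paired analysis was possible because each genotype had 1 library, and no library could be left out. Past 2-fold in either direction were 0 of the 10 genes without a filter and with TPM, 0 of the 6 that reached a filter of 5 FPKM, and 0 of the 8 measured under the other 5 alternatives, which left out Ptger2 and Ptger3; the sign of the log2 ratio was the same for 9 genes wherever they passed the filter, while Ptgs1 ranged from -0.07 to 0.01. The median over these genes ranged from 0.19 to 0.27. The background counts of genes past 2-fold (369 higher and 170 lower) did depend on the settings. They were 699 and 283 with a pseudocount of 0.1 FPKM, 759 and 301 with 0.01, 191 and 84 with a filter of 5 FPKM, 720 and 293 with CPM of expected counts, and 216 and 80 with at least 50 expected counts; after rescaling to TPM 613 were higher. The median of the other prostanoid receptor list, -0.034, was -0.035 with a pseudocount of 0.1, -0.035 with 0.01, -0.027 without a filter, -0.017 with TPM, -0.095 with median of ratios and -0.036 with CPM. Medians of 5 other pathway lists took both signs: those of other synthases (-0.09 to 0.10), breakdown and transport (-0.20 to 0.02), the lipoxygenase branch (-0.38 to 0.02), cyclic AMP signalling (-0.01 to 0.10) and its targets (-0.03 to 0.05). Depth limits Ptger3, Ptger2 and Ptgs2, with 7 to 66 counts per library.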
